A study of Oryctolagus cuniculus with 57 samples.

Results

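The ileal bile acid feedback was followed through 7 genes of the rabbit ileum: the hormone gene FGF19, the nuclear receptor genes NR0B2 (SHP) and NR1H4 (FXR), and the genes of bile acid uptake and export SLC10A2 (ASBT), FABP6 (I-BABP), SLC51A (OSTα) and SLC51B (OSTβ). They are 7 of the 7968 named genes tested on the array and were read by 11 probes, 4 of them for SLC10A2, 2 for NR1H4 and 1 for each other gene. FGF19 and NR0B2 were chosen on their measured levels in the FF rabbits of day 35 and their change to day 49, and FGF19 also on its level in the FFab rabbits of day 35, so every comparison of these 2 genes that involves FF, and for FGF19 FFab at day 35, is given below as a description without a test. The other 5 genes were taken because they belong to the same pathway. Levels are log2 intensities, so a difference of 1 is a doubling, and ± is the SD over rabbits for a group level and the standard error (SE) for a difference.

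Bile acids are made from cholesterol in the liver, released into the gut to help absorb fat, and taken back up at the end of the small intestine. There, ASBT brings them into the enterocyte, I-BABP carries them through the cell, and the paired subunits OSTα and OSTβ let them out toward the portal blood. Inside the cell they activate FXR, which switches on FGF19 and SHP. FGF19 travels to the liver and restrains bile acid synthesis, and SHP is a repressor that restrains other nuclear receptors, so the pathway is a feedback between ileum and liver.

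The probes through which each gene was measured are shown because every level below depends on them. They are 60 bases long, are written 5′ to 3′, and come from the array's own annotation, which places them on the oryCun2 build. The FGF19 probe, described in the array files as fibroblast growth factor 19-like, has no position there. It got its symbol from the study's tables, which list only genes called different between day 35 and day 49. The NR0B2 probe lies at chr13:138466439-138467720 on the plus strand, the NR1H4 probe at chr4:79784337-79784396 (plus), the SLC10A2 probe at chr8:104682623-104685738 (minus), the FABP6 probe at chr3:41633334-41636530 (plus), the SLC51A probe at chr14:92524709-92524768 (minus) and the SLC51B probe at chr17:7247147-7248136 (minus). Where the interval is longer than 60 bases, which is so for NR0B2, SLC10A2, FABP6 and SLC51B, the probe is split over more than 1 exon. Of the 4 SLC10A2 probes, the one read for the gene is printed with its nearest neighbour, and the 30 bases that both hold are in capitals.
FGF19: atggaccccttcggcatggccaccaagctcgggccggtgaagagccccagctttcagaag
NR0B2: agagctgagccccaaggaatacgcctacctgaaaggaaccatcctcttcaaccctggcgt
NR1H4: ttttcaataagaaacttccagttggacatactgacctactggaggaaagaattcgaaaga
SLC10A2: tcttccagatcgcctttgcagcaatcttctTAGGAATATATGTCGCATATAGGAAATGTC
SLC10A2, neighbouring probe: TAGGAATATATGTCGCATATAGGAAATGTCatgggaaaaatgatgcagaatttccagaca
FABP6: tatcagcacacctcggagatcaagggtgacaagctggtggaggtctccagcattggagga
SLC51A: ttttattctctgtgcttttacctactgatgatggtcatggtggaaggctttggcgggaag
SLC51B: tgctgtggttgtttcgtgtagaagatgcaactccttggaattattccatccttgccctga
The 3 other SLC10A2 probes followed the probe read for the gene with r of at least 0.98 over 56 arrays, and the second NR1H4 probe followed the first with r = 0.91 (0.71 over the 49 arrays described below).

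The study asked how eating feces in the nest shapes the ileum of commercial hybrid rabbits around weaning at day 35. NF pups had no access to feces, FF pups received pellets of unrelated, untreated does in place of those of their mother, and FFab pups received pellets of unrelated does given the antibiotics tiamulin and tetracycline. Whole ileal tissue of different rabbits, male or female, was taken at day 35 and at day 49, each rabbit on 1 one-colour array, and rabbits are named here by their label number (lap). The treatment was given by nest, and which rabbits were littermates is not in the labels, so the p-values measure the spread between these rabbits and may be too small if littermates shared a group. At day 35 the arrays fitted came from 10 FF, 10 FFab and 9 NF rabbits, and at day 49 from 9 rabbits of each treatment, without NF rabbit lap78 of day 35, which the study left out as an outlier. Because whole tissue was ground, fewer cells of a type and less RNA per cell cannot be told apart.

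The genes that mark the end of the small intestine were low in 7 of the 56 arrays. The 7 were picked after the data were seen, as the arrays of highest GATA4, which also lie below the widest gap in SLC10A2. Their separation in GATA4 and SLC10A2 was therefore fixed by the choice. The 7 arrays were NF rabbit lap93 and FFab rabbits lap96, lap107 and lap109 of day 35, and NF rabbit lap206 and FFab rabbits lap173 and lap185 of day 49, lying on 6 of the 9 slides. None of the 19 FF rabbits was among them, against 2 of 18 NF and 5 of 19 FFab rabbits. In the 7 arrays, SLC10A2 lay between 2.10 and 5.23 and in the other 49 between 8.08 and 13.57, FABP6 between 7.87 and 15.48 against 17.71 to 19.29, and SLC51A between 9.47 and 11.59 against 11.76 to 14.43. These 3 genes did not overlap between the sets, SLC10A2 by the choice of the arrays. SLC51B (12.37 to 14.24 against 13.85 to 16.05) and NR1H4 (8.24 to 9.20 against 9.16 to 10.84) overlapped only at the edge, while NR0B2 (10.46 to 12.29 against 7.26 to 13.13) and FGF19 (5.83 to 7.57 against 5.34 to 12.63) lay inside the range of the others.

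GATA4, a transcription factor of the proximal small intestine by which the 7 arrays were picked, lay at 7.91 to 8.61 in them against 4.07 to 7.36 in the others. The liver-type fatty acid binding protein gene FABP1, also strongest upstream of the ileum, lay at 18.04 to 18.73 against 10.90 to 18.29. The 2 other measured proximal markers overlapped, CYBRD1 at 9.56 to 10.22 against 8.44 to 11.17 and SLC46A1 at 4.15 to 5.34 against 3.68 to 8.50, and so did the 2 distal markers measured besides the 7 genes, NTS (11.31 to 13.38 against 11.51 to 14.40) and PYY (5.50 to 6.47 against 5.78 to 9.60). HOXA10, a homeobox gene of the posterior body that was looked up after its values were seen, was at 1.87 to 2.24 against 1.88 to 6.10. The 7 measured enterocyte markers of 12 overlapped between the sets too, EPCAM widely (15.62 to 16.16 against 15.52 to 16.26), whereas FABP2 (17.76 to 18.34 against 15.77 to 17.91) and CDH17 (14.02 to 14.58 against 13.17 to 14.60) lay toward the upper end in the 7 arrays. Over all named genes, 40 of 7968 (0.502%) did not overlap, 19 of them higher and 21 lower in the 7 arrays. GATA4 and SLC10A2, on which the arrays were picked, are counted among them. The left-out NF rabbit lap78 had SLC10A2 at 2.57, FABP6 at 9.32 and GATA4 at 8.49, each within the range of the 7 arrays. In other listed genes lap78 lay outside that range, with SLC46A1 at 13.56, NTS at 3.91 and PYY at 6.94. The label of all these samples is ileum, and the 7 arrays go against it in SLC10A2 and FABP6, so results that rest on them are given with and without them. As they hold the lowest SLC10A2 values, the spread of SLC10A2 without them is narrowed by the choice. Tests of SLC10A2 without the 7 arrays are therefore a description only. What set the 7 arrays apart was not tested.

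**Figure D1:**
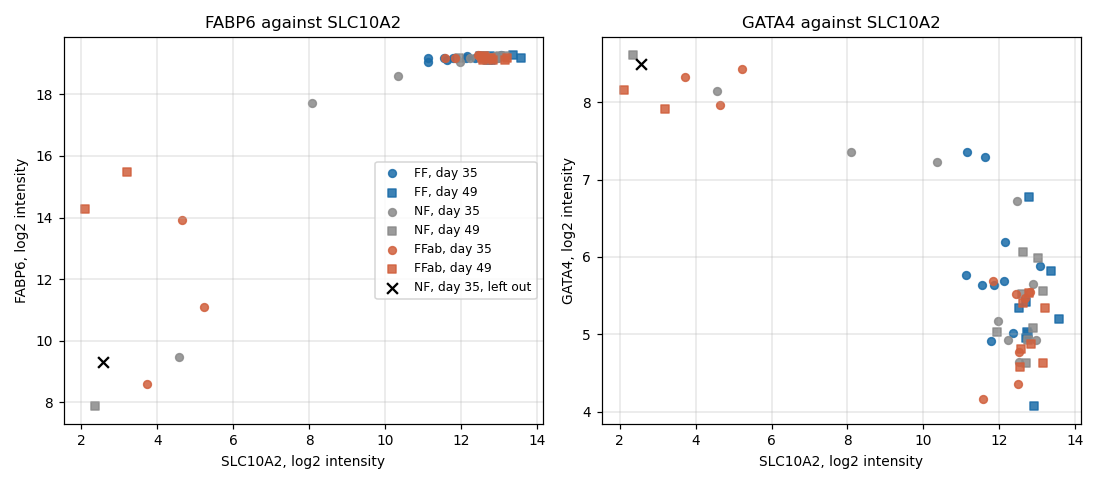
Each point is 1 rabbit. The left panel plots FABP6 against SLC10A2 and the right panel GATA4 against SLC10A2, all in log2 intensity, with colour for the treatment, circles for day 35, squares for day 49 and a cross for the left-out NF rabbit. The 7 arrays, picked on GATA4 and SLC10A2, sit at SLC10A2 of 5.23 or less and GATA4 of 7.91 or more, and no FF rabbit is among them.

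FGF19 was the gene of the pathway that differed most between groups, and it was high in the FF rabbits at weaning. At day 35 its level in FF ran from 7.50 over a median of 9.70 to 12.63 (9.80 ± 1.56, n = 10). In NF it ran from 5.59 over 7.18 to 9.70 (7.58 ± 1.58, n = 9) and in FFab from 5.47 over 6.94 to 10.35 (7.13 ± 1.51, n = 10). Thus 5 of the 10 FF rabbits were above every NF rabbit and 3 above every FFab rabbit, and all 10 were above the medians of both. At day 49 the level was 5.37, 5.80 and 6.14 in FF (lowest, median, highest; 5.83 ± 0.25, n = 9), 5.78, 6.19 and 9.33 in NF (6.58 ± 1.20, n = 9) and 5.34, 6.07 and 6.83 in FFab (6.08 ± 0.46, n = 9). The FF rabbits of day 35 and of day 49 did not overlap. The NF rabbits of day 49 owed their wide spread to rabbits lap189, at 9.33, and lap170, at 7.76. In the order of the 6 group means, only the first step, from FF at day 35 to NF at day 35 (2.22), was larger than the SD of the groups it joins, and the later neighbours were 0.25 to 0.55 apart.

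Within the FF rabbits of day 35, FGF19 differed 34.9-fold between the lowest and the highest. Rabbits lap82, lap90 and lap88 were highest, at 12.63, 11.51 and 10.65, and rabbit lap102 was lowest, at 7.50. The same 3 rabbits had the highest NR0B2 of the group (13.13, 12.30 and 13.12, the other 7 at 8.76 to 10.97). They also had the lowest HOXA10 (1.90, 1.91 and 1.89, near the floor of the signal, the others at 3.75 to 5.66). The highest GATA4 was theirs too (6.19, 7.35 and 7.29, the others at 4.91 to 5.88). Their SLC10A2, at 12.14, 11.14 and 11.63, lay within the range of the other FF rabbits.

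NR0B2, the SHP gene, had its highest group mean in FF at day 35 too, but its groups overlapped throughout. Its lowest, median and highest levels at day 35 were 8.76, 10.80 and 13.13 in FF (10.95 ± 1.52), 7.73, 11.07 and 11.97 in NF (10.46 ± 1.36) and 7.73, 9.74 and 12.29 in FFab (9.88 ± 1.40). The NF median exceeded the FF median, and the FF mean was raised by 3 rabbits above every NF rabbit. At day 49 the levels were 8.08, 9.10 and 10.13 in FF (9.05 ± 0.66), 8.89, 9.74 and 12.23 in NF (9.91 ± 1.14) and 7.26, 8.95 and 11.38 in FFab (9.16 ± 1.35). No neighbouring pair in the order of the 6 group means was further apart than the larger SD. The 7 arrays of high GATA4 held the highest FFab value at each day and the highest NF value of day 49. Without them NR0B2 in FFab ran from 7.73 to 10.49 at day 35 (9.21 ± 0.94, n = 7) and from 7.26 to 9.66 at day 49 (8.57 ± 0.78, n = 7).

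NR1H4, which encodes the bile acid receptor FXR itself, varied little outside the 7 arrays. In FF it ran from 9.75 over 10.16 to 10.67 at day 35 and from 10.05 over 10.40 to 10.69 at day 49. The NF and FFab medians were 10.04 and 10.20 at day 35 and 10.34 and 10.30 at day 49, all within the range of the FF rabbits of the same day. Over all 56 arrays the lowest values, 9.01 in NF and 8.24 in FFab at day 35 and 8.42 and 8.49 at day 49, all belonged to the 7 arrays. Without these, NR1H4 in every group lay between 9.16 and 10.84, and the 6 group means differed by less than the largest SD of 0.45 (10.02 ± 0.45 in NF of day 35 was the lowest and 10.40 ± 0.30 in FFab of day 49 the highest).

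SLC10A2, the uptake transporter, was higher in FF at day 49 than at day 35. Its levels in FF were 11.11, 11.82 and 13.06 at day 35 (11.87 ± 0.58, n = 10) and 12.51, 12.76 and 13.57 at day 49 (12.89 ± 0.34, n = 9), so that only the upper end of day 35 reached into the range of day 49. In NF the lowest, median and highest were 4.57, 12.24 and 12.97 at day 35 and 2.36, 12.69 and 13.15 at day 49, and in FFab 3.71, 12.14 and 12.80 and 2.10, 12.61 and 13.20. The medians of NF and FFab thus lay inside the range of FF at each day, and the group means were pulled apart by the 7 arrays, in which SLC10A2 was 4.57 in NF rabbit lap93, 4.65, 3.71 and 5.23 in FFab rabbits lap96, lap109 and lap107, 2.36 in NF rabbit lap206 and 3.20 and 2.10 in FFab rabbits lap173 and lap185. The probe was not above background in 6 of the 57 arrays, 5 of these 7 and NF rabbit lap78, so low values there are only an upper bound. Without the 7 arrays the means were 11.69 ± 1.67 (NF) and 12.33 ± 0.45 (FFab) at day 35 and 12.71 ± 0.37 and 12.82 ± 0.27 at day 49.

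FABP6, the bile acid carrier of the enterocyte cytosol, hardly varied outside the 7 arrays. In FF its level was 19.05 to 19.29 at day 35 and 19.12 to 19.29 at day 49, with a median of 19.19 at both days. The median was 19.19 in NF at both days as well, and 19.19 and 19.12 in FFab. In the 7 arrays FABP6 was 9.46 in NF rabbit lap93, 13.92, 8.57 and 11.10 in FFab rabbits lap96, lap109 and lap107, 7.87 in NF rabbit lap206, and 15.48 and 14.28 in FFab rabbits lap173 and lap185. Among the other 49, only NF rabbits lap113 (17.71) and lap80 (18.60) of day 35 fell visibly below the rest, and these had SLC10A2 at 8.08 and 10.35 and GATA4 at 7.36 and 7.23. The quantile normalisation gives the brightest probes of every array the same few values, so small FABP6 differences are steps in rank. No spot of the 7 genes was saturated on any of the 57 arrays (0).

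SLC51A and SLC51B, the paired exporter subunits, moved together. SLC51A at day 35 was 12.55, 13.36 and 14.15 in FF, 10.96, 12.45 and 13.63 in NF and 9.47, 13.31 and 14.03 in FFab, and at day 49 it was 13.04, 13.63 and 14.22, 11.15, 13.40 and 14.43, and 10.48, 13.68 and 14.23. SLC51B at day 35 was 14.25, 15.17 and 15.68 in FF, 13.85, 14.88 and 15.43 in NF and 12.37, 14.96 and 15.54 in FFab, and at day 49 it was 14.59, 15.55 and 15.89, 13.10, 15.45 and 16.05, and 13.73, 15.40 and 15.74. For both genes the NF rabbits of day 35 had the lowest median of the 6 groups, and all groups overlapped. Without the 7 arrays the NF mean of day 35 was 12.80 ± 0.80 for SLC51A and 14.87 ± 0.60 for SLC51B (n = 8), and the other 5 group means ran from 13.37 to 13.73 and from 15.08 to 15.54.

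**Figure D2:**
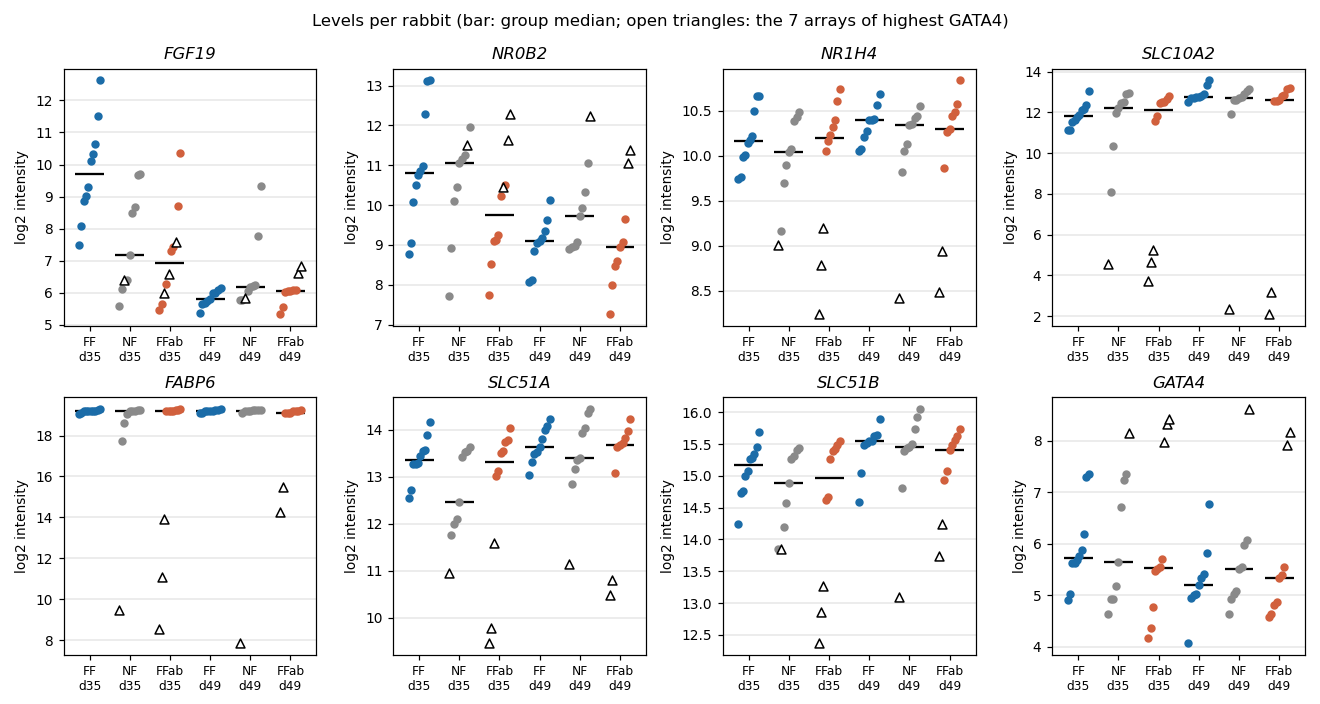
Level of each of the 7 genes and of GATA4 in every rabbit, in log2 intensity with a separate scale for each gene, by treatment and day. Bars are group medians over all arrays of the group and open triangles are the 7 arrays of highest GATA4, which lie lowest in SLC10A2, FABP6 and SLC51A and among the highest in NR0B2. FGF19 in FF of day 35 (7.50 to 12.63) does not overlap with FF of day 49 (5.37 to 6.14).

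Within day 35, FF had more FGF19 than either other treatment. The difference was 2.22 ± 0.55 against NF (4.65-fold) and 2.67 ± 0.54 against FFab (6.37-fold), and without the 7 arrays 2.07 ± 0.59 and 2.49 ± 0.62. In the limma fit, where a gene passes with a Benjamini-Hochberg adjusted p under 0.05 over all 7968 genes and a log2 difference beyond 0.5, 3 genes (0.0377%) passed between FF and NF, 0 of the 7 among them. Between FF and FFab 1 gene (0.0126%) passed, which was FGF19. As FGF19 was chosen for this difference, nothing is read from that call, and it was lost without the 7 arrays, when 3 genes (0.0377%) and 0 of the 7 passed (FF against NF 6 genes, 0.0753%, and 0 of the 7). NR0B2 followed with 0.49 ± 0.57 against NF and 1.07 ± 0.56 against FFab, and 0.62 ± 0.50 and 1.75 ± 0.52 without the 7 arrays. FGF19 in NF and FFab of day 35 differed by 0.45 ± 0.55, and NR0B2 by 0.58 ± 0.57 (adjusted p = 1.0 in limma), or by 1.12 ± 0.55 without the 7 arrays (adjusted p = 1.0).

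For the receptor and transport genes at day 35, the direction of the difference between FF and FFab depended on the 7 arrays. With all 56 arrays, FF was above FFab by 1.88 ± 1.32 in SLC10A2, 2.37 ± 1.20 in FABP6, 0.81 ± 0.48 in SLC51A, 0.59 ± 0.34 in SLC51B and 0.31 ± 0.27 in NR1H4 (adjusted p of 0.827 to 0.970 in limma). Without the 7, of which 3 were FFab rabbits of day 35, the differences were -0.46 ± 0.38, -0.035 ± 0.11, -0.17 ± 0.25, -0.11 ± 0.20 and -0.17 ± 0.15 (adjusted p of 0.813 to 0.985), so all 5 changed sign. With all 56 arrays and the GATA4 level as a covariate they stayed above 0, at 1.70 ± 0.72, 2.22 ± 0.75, 0.75 ± 0.33, 0.56 ± 0.26 and 0.27 ± 0.13 (adjusted p of 0.312 to 0.628). Against NF, FF was higher by 0.98 ± 1.36 in SLC10A2, 1.31 ± 1.23 in FABP6, 0.77 ± 0.49 in SLC51A, 0.33 ± 0.34 in SLC51B and 0.28 ± 0.27 in NR1H4 (adjusted p of 0.752 to 0.925), and these stayed above 0 without the 7, at 0.19 ± 0.36, 0.26 ± 0.11, 0.57 ± 0.24, 0.22 ± 0.20 and 0.17 ± 0.14 (adjusted p of 0.463 to 0.954). In a two-sided exact permutation test of the single gene, FABP6 had p = 0.0462 and SLC51A p = 0.0377 in FF against NF over all arrays, and without the 7 these were 0.109 and 0.0797. Between NF and FFab 0 of 7968 genes passed in limma (0%, with 164 at an unadjusted p under 0.05, and 356 without the 7 arrays, again 0%). SLC51A was lower in NF by 0.73 ± 0.26 without the 7 arrays (adjusted p = 0.999, exact permutation p = 0.049), and differed by 0.04 ± 0.49 with them.

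At day 49 none of the 7 genes passed between treatments. The FGF19 difference was -0.74 ± 0.57 between FF and NF (-0.84 ± 0.61 without the 7 arrays), -0.25 ± 0.57 between FF and FFab (-0.062 ± 0.63) and 0.50 ± 0.57 between NF and FFab (0.78 ± 0.65), the last with adjusted p = 1.0 in limma and 0.999 without the 7 arrays. Leaving out 1 array at a time gave -0.84 to -0.40 between FF and NF. NR0B2 differed by -0.85 ± 0.59 between FF and NF (-0.56 ± 0.52 without the 7 arrays) and by -0.11 ± 0.59 between FF and FFab, where the sign changed without the 7 arrays (0.48 ± 0.54). Between NF and FFab it differed by 0.74 ± 0.59 (adjusted p = 1.0), and by 1.04 ± 0.55 without the 7 arrays (adjusted p = 0.999, exact permutation p = 0.0213). SLC10A2 was 2.34 ± 1.39 higher in FF than in FFab and 1.34 ± 1.39 higher than in NF, and without the 7 arrays 0.08 ± 0.38 and 0.19 ± 0.37 (adjusted p = 1.0 in each of the 4). FABP6 likewise went from 0.98 ± 1.26 to 0.03 ± 0.11 against FFab and from 1.25 ± 1.26 to -0.01 ± 0.11 against NF. SLC51A in FF minus FFab went from 0.63 ± 0.51 to -0.053 ± 0.26 and in FF minus NF from 0.27 ± 0.51 to -0.01 ± 0.25. For SLC51B these were 0.34 ± 0.35 and 0.026 ± 0.21 against FFab and 0.16 ± 0.35 and -0.11 ± 0.20 against NF, and for NR1H4 0.32 ± 0.28 and -0.053 ± 0.15, and 0.28 ± 0.28 and 0.079 ± 0.15 (adjusted p = 1.0 in limma in each). None of the 7968 genes passed in limma between any pair at day 49 (0%), with or without the 7 arrays, while 1.13% (FF and NF), 2.31% (FF and FFab) and 1.83% (NF and FFab) of the genes had an unadjusted p under 0.05, or 0.991%, 2.94% and 3.79% without the 7 arrays.

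**Figure D3:**
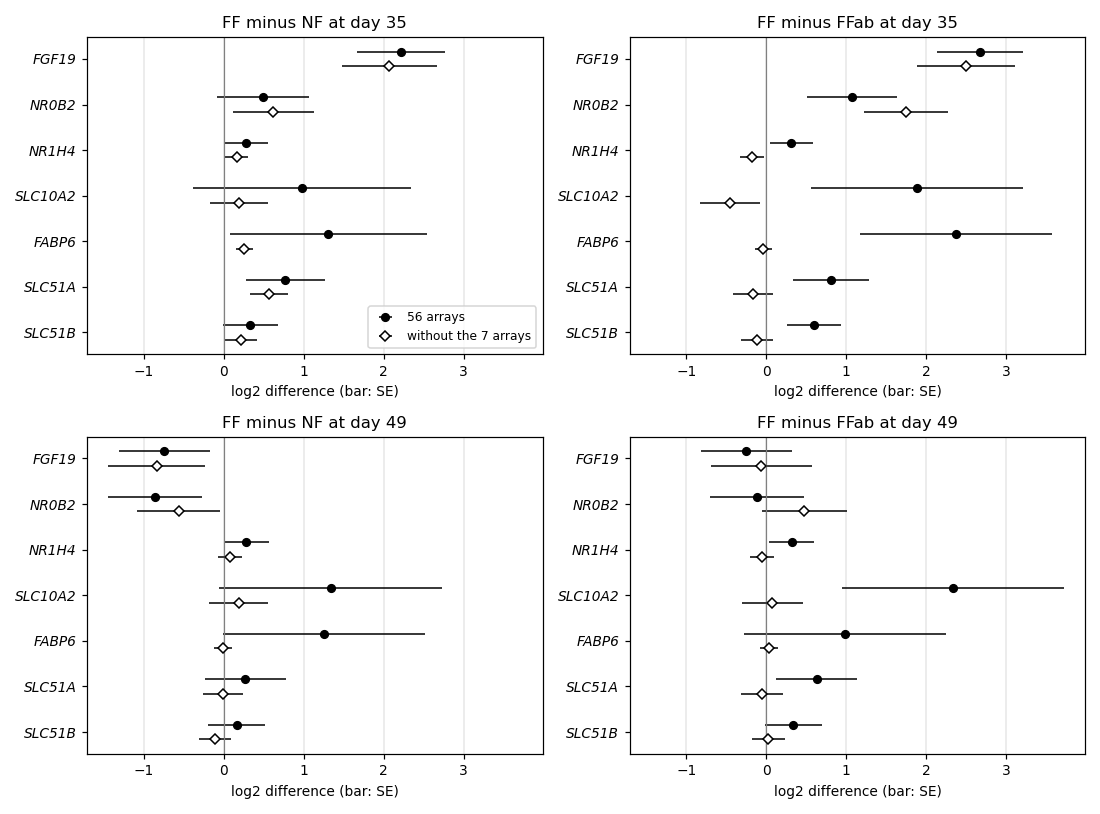
Difference in log2 level, FF minus NF (left) and FF minus FFab (right), at day 35 (top) and day 49 (bottom), for the 7 genes. Filled circles are the fit of 56 arrays, open diamonds the fit without the 7 arrays of highest GATA4, and bars are standard errors. FGF19 is at 2.07 or more in both day 35 panels under both fits, while SLC10A2 and FABP6 move to -0.46 and -0.035 against FFab at day 35.

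From day 35 to day 49, FGF19 and NR0B2 fell in FF, and no other gene of the 7 passed in any treatment in the limma fit of all groups. FGF19 changed by -3.97 ± 0.55 in FF (15.6-fold lower at day 49) and NR0B2 by -1.90 ± 0.57 (3.74-fold lower). In FF 343 of 7968 genes (4.30%) passed in limma and 2 of the 7 genes, these same 2, were among them. Without the 7 arrays 408 genes (5.12%) passed, with both genes again among them. FGF19 and NR0B2 were chosen for that change, so nothing is read from the count, and NR0B2 no longer passed when any 1 of the FF rabbits lap82, lap88 or lap90 of day 35 or lap158 or lap159 of day 49 was left out (-1.66 to -1.79). In NF the 2 genes changed by -1.0 ± 0.57 and -0.56 ± 0.59 (adjusted p = 0.906 and 0.998 in limma) and in FFab by -1.05 ± 0.55 and -0.72 ± 0.57 (the latter adjusted p = 0.827), all in the same direction as in FF. In NF 3 genes (0.0377%) passed, without the 7 arrays 15 (0.188%), and in FFab 6 (0.0753%) and 5 (0.0628%), with 0 of the 7 genes in any of these 4 fits. The FF change minus the NF change was -2.96 ± 0.79 in FGF19 and -1.35 ± 0.82 in NR0B2, and the FF change minus the FFab change -2.92 ± 0.78 and -1.18 ± 0.81. No gene of 7968 passed in any of the 3 comparisons of age changes (0%, with 360, 227 and 73 at an unadjusted p under 0.05), and none did without the 7 arrays (0%, with 335, 285 and 62).

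Within FF, GATA4 and HOXA10 did not pass between the days in the limma fit of all groups, whose shared spread takes in the 7 arrays. The FF groups hold none of these 7. Their own SDs at day 35 and day 49 were 0.82 and 0.73 in GATA4 and 1.53 and 0.58 in HOXA10. GATA4 was 4.91, 5.72 and 7.35 at day 35 (lowest, median, highest) and 4.07, 5.20 and 6.78 at day 49, a change of -0.65 ± 0.55 (adjusted p = 0.554). HOXA10 was 1.89, 4.67 and 5.66 at day 35 and 4.04, 5.23 and 5.71 at day 49, a change of 1.08 ± 0.62 (adjusted p = 0.332), and the 3 FF rabbits of day 35 with the most NR0B2 made the low end of the first. With the GATA4 level as a covariate the FF change was -3.81 ± 0.55 in FGF19 and -1.40 ± 0.40 in NR0B2, and without the 11 arrays of highest GATA4 it was -3.65 ± 0.59 and -1.46 ± 0.49. At day 35 the covariate gave FGF19 differences of 2.26 ± 0.54 (FF minus NF) and 2.69 ± 0.53 (FF minus FFab), and the fit without the 11 arrays 2.24 ± 0.65 and 2.18 ± 0.62.

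Marker lists of cell types were read beside these FF differences. Of the fat tissue markers 3 of 6 were measured, and their mean level ran from 8.13 to 9.58 in FF at day 35 and from 9.67 to 10.71 at day 49, without overlap. In FF the fatty acid binding protein gene FABP4 (1.71 ± 0.47, adjusted p = 0.0151 in limma) and the lipoprotein lipase gene LPL (1.68 ± 0.28, adjusted p = 7.7e-05) rose, 2 of 3 beside 4.30% of all genes. The median over the 3 was 1.68 in FF, 1.26 in NF and 1.15 in FFab, beside a median over all genes near 0 (-0.01 in FF), and 0 of the 3 passed in NF and FFab (2 in NF without the 7 arrays). Of the smooth muscle markers 4 of 6 were measured, with a mean level of 12.81 to 14.25 in FF, 13.38 to 14.95 in NF and 12.82 to 15.39 in FFab at day 35 and 13.60 to 14.93 in FF at day 49. All 4 lay lower in FF than in NF and FFab at day 35, by medians of -0.59 and -0.56 (-0.70 and -0.86 without the 7 arrays), and 0 passed. All 4 lay higher in FF at day 49 than at day 35, by a median of 0.57, and 0 passed, but without the 7 arrays the desmin gene DES (0.77 ± 0.26, adjusted p = 0.0447) and the actin gene ACTG2 (0.75 ± 0.25, adjusted p = 0.0498) did. Of 7 measured enterocyte markers, the brush border genes ALPI (1.13 ± 0.28, adjusted p = 0.00831) and DPP4 (0.83 ± 0.21, adjusted p = 0.0078) rose in FF, with a median of 0.19 over the 7. In all, 4 of the 7 lay above 0 and 3 below. Those below were CDH17 (-0.33 ± 0.16), LGALS4 (-0.22 ± 0.10) and EPCAM (-0.12 ± 0.07), which did not pass. Of the other lists, 2 of 6 leukocyte, 1 of 5 goblet cell, 3 of 5 red blood cell, 2 of 6 distal and 4 of 7 proximal markers were measured, and 0 passed in the FF change. The part of these markers in the FGF19 and NR0B2 changes was not tested.

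SLC10A2 was higher at day 49 than at day 35 by 1.02 ± 1.36 in FF in the limma fit of all groups (2.03-fold, adjusted p = 0.757). The FF groups held none of the 7 arrays, and their own spread was smaller. With the 2 FF groups fitted alone the SE was 0.21 and the adjusted p 0.00636, and the exact permutation test of the gene gave p = 0.00039. Without the 7 arrays in the fit of all groups the SE was 0.35 (adjusted p = 0.0542). Leaving out also the 4 arrays of next highest GATA4 gave 0.90 ± 0.20 (adjusted p = 0.0029), while the GATA4 level as a covariate turned the change to -0.34 ± 0.75 (adjusted p = 0.872). SLC10A2 in NF and FFab changed by 0.66 ± 1.39 and 0.57 ± 1.36 (adjusted p = 0.998 and 0.960), and without the 7 arrays by 1.02 ± 0.38 and 0.49 ± 0.41 (adjusted p = 0.359 and 0.999, exact permutation p = 0.0794 and 0.0239).

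The other receptor and transport genes changed less with age. SLC51A was higher at day 49 in each treatment, by 0.31 ± 0.49 in FF, 0.81 ± 0.51 in NF and 0.49 ± 0.49 in FFab (adjusted p of 0.807 to 0.965 in limma), and SLC51B by 0.35 ± 0.34, 0.51 ± 0.35 and 0.60 ± 0.34 (0.639 to 0.978). Without the 7 arrays the NF changes were 0.89 ± 0.25 and 0.67 ± 0.21 (adjusted p = 0.161 and 0.218, exact permutation p = 0.0261 and 0.0149), while the FFab changes shrank to 0.20 ± 0.27 and 0.21 ± 0.22. NR1H4 changed by 0.15 in each treatment (SE 0.27 or 0.28, adjusted p of 0.835 to 0.998). FABP6 changed by 0.01 ± 1.23 in FF, 0.07 ± 1.26 in NF and 1.40 ± 1.23 in FFab (adjusted p of 0.848 to 0.998), the last of which was -0.052 ± 0.12 without the 7 arrays. Over all the comparisons in which the choice of genes played no part, 67 tests of the 7 genes were made in limma, of which 0 had an unadjusted p under 0.05 with 56 arrays and 12 without the 7 arrays, and 0 passed in either. Over all genes the share under 0.05 in limma was 0.916% to 20.9% by comparison with 56 arrays and 0.778% to 23.1% without the 7. It was highest in the FF age change. Of 51 exact permutation tests 3 had p under 0.05 with 56 arrays and 6 without the 7. Both counts without the 7 arrays include SLC10A2 tests, in which the arrays left out were the lowest in that gene.

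**Figure D4:**
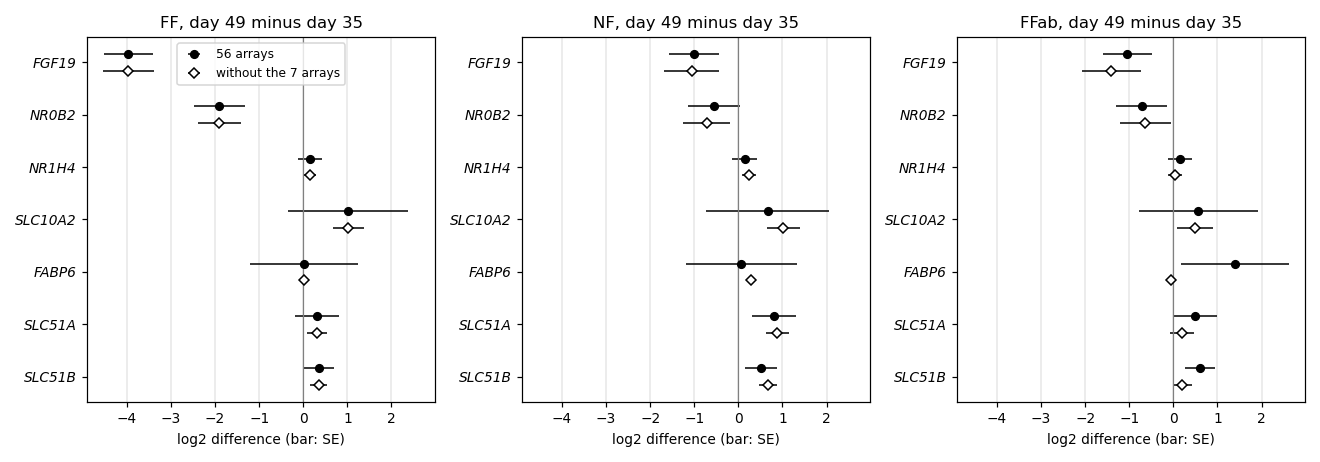
Difference in log2 level, day 49 minus day 35, for the 7 genes in FF, NF and FFab. Filled circles are the fit of 56 arrays, open diamonds the fit without the 7 arrays of highest GATA4, and bars are standard errors, which for SLC10A2 shrink from 1.36 to 0.35 in FF. The 7 arrays hold the lowest SLC10A2 values, so the smaller error follows from their choice. FGF19 and NR0B2 are below 0 in all 3 treatments, with FF lowest at -3.97 and -1.90.

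Rabbits with much FGF19 had much NR0B2. Because group means hold the differences the genes were chosen for, correlations were taken over each rabbit's deviation from its group mean, and because the 7 arrays form a cluster of their own, over the 49 others. Over all 56 arrays these deviations gave FGF19 and NR0B2 Pearson's r = 0.56 and Spearman's rho = 0.59 (permutation p = 8e-05 and 3e-05). Over the 49, a setting chosen after the data were seen, r was 0.78 and rho 0.75. Both had permutation p = 1e-05, the smallest that 100000 permutations can give (adjusted p = 0.000105 over the 21 pairs of genes). Centring does not remove all of the choice, because the FF rabbits of day 35, whose levels led to it, are among the 49. Of these, lap82, lap90 and lap88 were highest in both genes. The p-values of this pair that include day 35 are therefore not free of the choice. With each day taken alone, r was 0.83 at day 35 (n = 25) and 0.60 at day 49 (n = 24), 0.73 without the 2 rabbits farthest out, and 0.80 when deviations were also taken from slide means. With the GATA4 level taken out of both genes it was 0.68. Over the same 49 rabbits FGF19 and NR0B2 themselves went with GATA4 at r = 0.56 and 0.55.

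The subunit genes SLC51A and SLC51B went together as well, with r = 0.76 and rho = 0.75 (permutation p = 1e-05, adjusted p = 0.000105), r = 0.79 at day 35, 0.71 at day 49 and 0.81 without the 2 farthest rabbits. SLC10A2 and FABP6 had r = 0.88 (permutation p = 2e-05, adjusted p = 0.00014) and rho = 0.55 (p = 0.00147, adjusted p = 0.0103), but r was 0.15 at day 49 and 0.45 without the 2 farthest rabbits. That relation therefore rested largely on NF rabbits lap113 and lap80 of day 35. FGF19 and SLC10A2 had r = -0.26 (permutation p = 0.173, adjusted p = 0.26) and rho = -0.34 (p = 0.0311, adjusted p = 0.0932), and at day 49 r = -0.43 (adjusted p = 0.353) and rho = -0.60 (adjusted p = 0.0226). FGF19 with NR1H4 had r = -0.39 (p = 0.014, adjusted p = 0.0368) and rho = -0.38 (p = 0.0146, adjusted p = 0.0765). FGF19 with SLC51B had r = 0.39 (p = 0.0169, adjusted p = 0.0394) and rho = 0.29 (p = 0.0723, adjusted p = 0.169), and NR0B2 with SLC51B r = 0.48 (p = 0.00229, adjusted p = 0.00962) and rho = 0.34 (p = 0.0305, adjusted p = 0.0932). None of these last 3 passed without the 2 farthest rabbits, when r was -0.37, 0.35 and 0.41 (adjusted p = 0.1, 0.146 and 0.0752). By r, 9 of 21 pairs passed over the 49 rabbits, 8 of them positive, and 3 still did without the 2 farthest, namely FGF19 with NR0B2, SLC51A with SLC51B and SLC10A2 with FABP6. Over all 56 arrays 15 of 21 pairs passed, 11 positive and 4 negative. The 4 negative pairs joined NR0B2 with NR1H4 (r = -0.62), SLC10A2 (-0.59), FABP6 (-0.55) and SLC51A (-0.39). Over the 49 rabbits these 4 were at -0.26, -0.088, -0.065 and 0.28, and none passed.

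**Figure D5:**
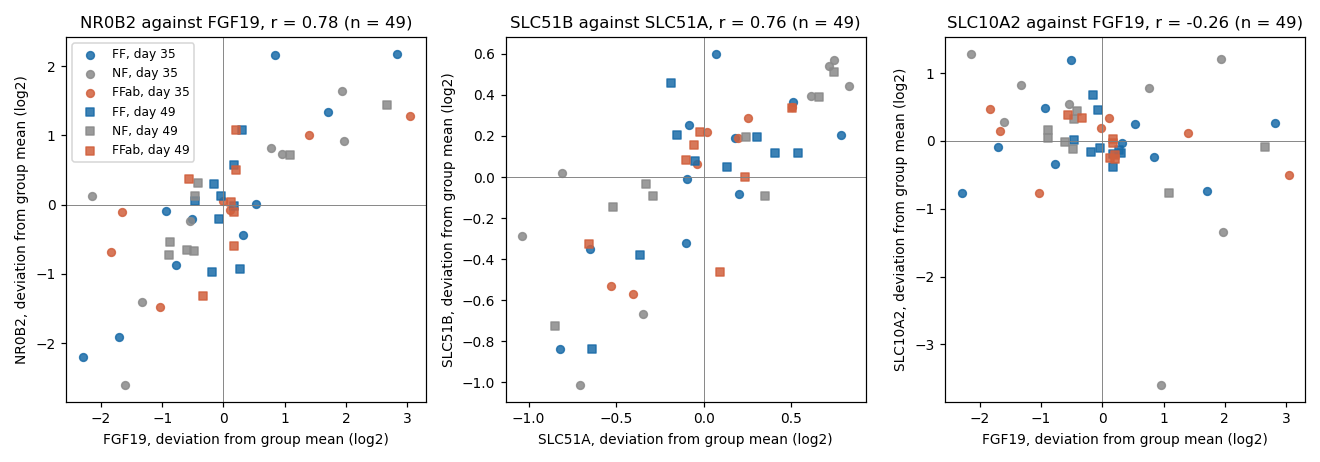
Deviation of each of the 49 rabbits from its group mean, in log2 units, with colour for the treatment, circles for day 35 and squares for day 49. NR0B2 rises with FGF19 (r = 0.78) and SLC51B with SLC51A (r = 0.76), and SLC10A2 shows no such relation with FGF19 (r = -0.26), where the lowest point is NF rabbit lap113.

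By r over deviations from group means, NR0B2 had rank 2 among the 7967 other named genes in likeness to FGF19 over the 49 rabbits, and FGF19 had rank 4 in likeness to NR0B2. Over all 56 arrays the ranks were 14 and 330. The gene most like FGF19 over 56 arrays was PHKG1, a catalytic subunit of phosphorylase kinase (r = 0.70), followed by PDZK1 (0.60), HDHD3, TXNDC15, the sterol exporter subunit ABCG8, UQCRQ, SUSD2, NHERF1, PRXL2A and NAIF1 (0.58 to 0.56). Most unlike it were EMB (-0.66), CHN1 (-0.65), TNFRSF11B (-0.61), the integrin gene ITGAX (-0.60) and the carbonic anhydrase gene CA2 (-0.59). Those most like NR0B2 were SLC27A4, a fatty acid transport protein (0.88), SEC14L2 (0.86), ANXA13 (0.84), CYP2J2 (0.84) and SGPL1 (0.84), which over the 49 rabbits had r of 0.76 to 0.81. Over these 49, a setting chosen after the values were seen, the genes most like FGF19 were ANXA13 (0.84), NR0B2 (0.78), CYP2J2 (0.76), SLC27A4 (0.75), SGPL1 (0.75) and the cholesterol uptake gene NPC1L1 (0.75), and those most unlike it HOXA10 (-0.78) and HOXD10 (-0.77), followed by EVX1 (-0.72). These values come from the same libraries and carry no test.

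Beyond the 7 genes, 23 of 36 listed genes of bile acid signalling and handling were measured, and 0 of them passed in any of the 12 comparisons of the limma fit, in which 4.30% of all genes passed for the FF age change and at most 0.0753% elsewhere. The median change over the 23 was between -0.10 and 0.06 in each comparison, beside a median over all 7968 genes between -0.01 and 0.01. Those with the smallest p were FGFR4, the receptor of FGF19 (-0.47 ± 0.12 from day 35 to day 49 in FF, adjusted p = 0.0125, below the fold required), ATP8B1, a lipid flippase of the canalicular type (-0.73 ± 0.24, adjusted p = 0.0523), and the coactivator gene PPARGC1A (0.63 ± 0.22, adjusted p = 0.0661). Without the 7 arrays ATP8B1 fell (adjusted p = 0.00772) and PPARGC1A rose (adjusted p = 0.00768) in FF with the same estimates, 2 of 23 beside 5.12% of all genes. In NF the 3 genes changed by -0.15, -0.38 and 0.14 and in FFab by -0.23, -0.29 and 0.20, with adjusted p of 0.636 to 0.998. Of the cholesterol genes given beside them, NPC1L1 (-3.22 ± 1.04, adjusted p = 0.042) fell in FF, and ABCA1 (-0.67 ± 0.23, adjusted p = 0.0563), ABCG5 (-0.31 ± 0.35) and ABCG8 (-0.45 ± 0.32) did not pass. NPC1L1 changed by -1.68 ± 1.06 in NF and -1.99 ± 1.04 in FFab (adjusted p = 0.965 and 0.620 in limma). Its FF change minus the NF change was -1.54 ± 1.49, and minus the FFab change -1.24 ± 1.47, and neither passed.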

How the data were processed

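Total RNA of ileum was labelled with Cy3 and hybridised to a custom rabbit Agilent 60-mer array, and the authors scanned it with Agilent Feature Extraction (10.10.1.1 in the file headers, 10.7.3.1 in the submitters' processing notes). The deposited scanner intensity is the processed, background-subtracted signal per spot. The deposited value table holds log2 values that the authors normalized by quantiles and served as an alternative (median r = 0.989 with the values used). Here, unflagged spots were averaged per probe, log2 transformed and quantile normalized over 57 arrays, and a probe was kept if 75% or more of any group had it well above background. Probes were named by accession, gene identifier, the study's tables or the gene name in the files, and the probe of median level was taken per gene, giving 7968 genes. The study's tables named 137 probes, that of FGF19 among them. They list only genes called different with age, so the shares and ranks over all genes include genes named because of such a call. Group means were fitted with limma 3.58.1 in R 4.3.3 on 56 arrays without covariates, with Benjamini-Hochberg adjustment over all genes. Neither litter nor sex was in the model. Single genes were also tested by exact permutation of rabbits, and correlations by 100000 permutations within groups, two-sided. The number of arrays limits the precision. The scripts were tested on simulated data. The genes and gene lists were chosen with earlier results of these data known. Genes named beside them are pathway genes past the threshold, else the 3 of smallest p, the 10 most and 5 least like FGF19 and the 5 most like NR0B2. Marker lists covered enterocytes, the proximal and distal small intestine, smooth muscle, fat tissue, leukocytes, goblet cells and red blood cells. 1 gene of the cholesterol list is not reported here.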

Additional observations from a re-analysis of the deposited data

Results flagged for a closer look

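Among 42 groups of rabbits checked gene by gene, 6 had a lowest value far below the next one by Dixon's criterion, and all 6 values came from the 7 arrays of highest GATA4. By chance about 1 in 20 groups would be marked this way. NF rabbit lap206 of day 49 accounted for 5 of them, with NR1H4 at 8.42 (next lowest NF rabbit of day 49 at 9.82), SLC10A2 at 2.36 (11.94), FABP6 at 7.87 (19.12), SLC51A at 11.15 (12.84) and SLC51B at 13.10 (14.81). NF rabbit lap93 of day 35 had FABP6 at 9.46, with the next lowest at 17.71.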

How the results depend on the processing

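Differences of the 7 genes are called reversed where they changed sign and exceeded their SE with 56 arrays. Of 84 differences, 8 reversed, each both without the 7 and without the 11 arrays of highest GATA4, settings chosen, like the GATA4 covariate, after seeing the data. Without the 7 and without the 11, FF minus FFab at day 35 was -0.17 and -0.10 in NR1H4, -0.46 and -0.33 in SLC10A2, -0.035 and -0.027 in FABP6, -0.17 and -0.16 in SLC51A and -0.11 and -0.22 in SLC51B, at day 49 -0.053 in NR1H4 and -0.053 in SLC51A in both settings, and the age change of FABP6 in FFab was -0.052 in both. The r of NR0B2 with SLC51A was 0.28 without the 7, the pairs that passed were 9 instead of 15, and the ranks of likeness were 2 and 4. The cause was not tested. Between FF and FFab at day 35, 1 of the 7 genes passed, and 0 did with array weights, with only the 2 groups compared, with all probes, without the 7 arrays or without the 11. Leaving out 1 array at a time gave 0 to 1 there (FGF19 was lost in 12 of 56 fits, at 2.36 to 2.78, without FF rabbit lap82, lap88, lap89, lap90, lap101 or lap104 or FFab rabbit lap96, lap105, lap106, lap107, lap108 or lap112), 0 to 1 between FF and NF at day 35 (passing at 2.48 without NF rabbit lap84) and 1 to 2 for the FF age change (NR0B2 was lost without FF rabbits lap82, lap88 or lap90 of day 35 or lap158 or lap159 of day 49). All other counts of how many of the 7 genes passed kept their value or stayed within 1.5 times. Over all 7968 genes, those passing went without the 7 arrays from 3 to 15 for the NF age change, from 3 to 6 for FF minus NF and from 1 to 3 for FF minus FFab at day 35, those of the bile acid list in FF from 0 to 2, and the limma tests of the 7 genes with an unadjusted p under 0.05 from 0 to 12 of 67. Over all genes that share was 0.916% to 20.9% by comparison with 56 arrays and 0.778% to 23.1% without the 7. No paired analysis was possible because each rabbit has its own number and no number is shared between groups. The number of arrays, and signal over background for SLC10A2 in 6 of 57 arrays, limit what can be seen.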
